A study of Homo sapiens with 10 samples.

Results

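The 9 genes described here encode steroid hormone receptors and the transcription factors by which luminal breast cells are recognized: ESR1, PGR, GATA3, FOXA1, TFAP2C, XBP1, SPDEF, TRPS1 and GRHL2. They were chosen by name, with earlier results of these data known, and 7 of the 9 were among the 13920 genes with read counts. SPDEF and GRHL2 are missing from that list and are not analysed here. RNA was sequenced from spheroids, cell aggregates grown in low-adherence wells, on day 4 of culture. All libraries were labelled as T47D, a human luminal breast cancer cell line, and no drug treatment is given for any of them. The groups were wild-type cells (WT, 4 libraries, experiments 10, 11, 15 and 16), the SAMHD1-KO clone A1 (4 libraries, the same experiments) and the SAMHD1-KO clone A2 (2 libraries, experiments 15 and 16). In both clones SAMHD1, a dNTP hydrolase, had been edited with CRISPR/Cas9 in exon 5. Each clone is a single line, so the knock-out and other differences of that clone from WT cannot be told apart within it.

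In luminal breast cells the estrogen receptor ESR1 and the progesterone receptor PGR are nuclear receptors that bind their hormone and then regulate genes directly. FOXA1 opens chromatin at their binding sites, GATA3 maintains luminal identity and sits in a positive loop with ESR1, and TFAP2C (AP-2 gamma) regulates ESR1 transcription. XBP1 drives the unfolded protein response and is an estrogen target, and TRPS1 is a GATA-type repressor widely used as a breast marker.

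The luminal label was checked against the defining markers of luminal cells, of which most were low or not listed and KRT18 was not low. Counts were scaled to CPM (counts per 1000000 reads of the library) with TMM normalization. Of 10 luminal cell markers, KRT19, KRT7 and CLDN7 were not among the listed genes. The adhesion genes EPCAM and CDH1 had at most 1.78 and 2.16 CPM in any library, CLDN3 and CLDN4 at most 0.58 and 0.937 CPM, and MUC1 at most 2.26 CPM. The simple keratins KRT8 and KRT18 lay between 3.1 and 9.07 CPM and between 36.3 and 60.3 CPM. Among 12 basal cell markers the keratins KRT5, KRT14, KRT17 and KRT6A and the factor TP63 were not listed either, while the intermediate filament gene VIM had 1180 to 1520 CPM. The mesenchymal genes CDH2, ZEB1 and ZEB2, chosen after their values were seen, had medians of 131, 66.6 and 30.6 CPM. Apart from KRT18, these markers do not bear out the luminal label in any of the 3 groups, and the cells are called here by their labels only.

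**Figure D1:**
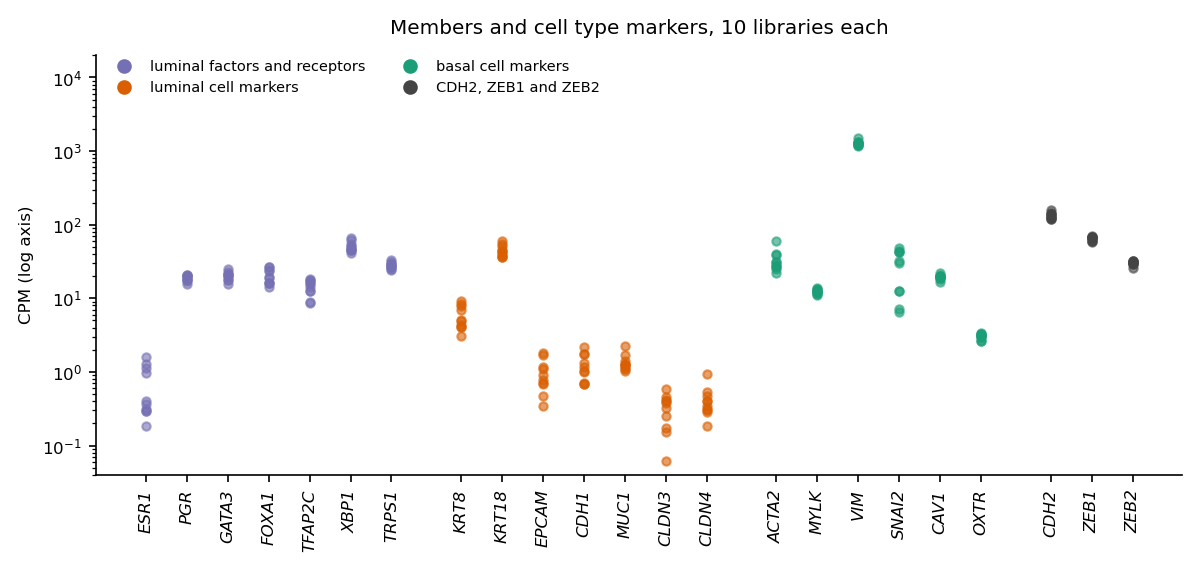
Level in CPM (log axis) of the 7 members, 7 luminal cell markers, 6 basal cell markers and CDH2, ZEB1 and ZEB2, with 1 point for each of the 10 libraries. ESR1, EPCAM, CDH1, CLDN3 and CLDN4 lie around or below 1 CPM, whereas the other 6 members lie between 8.7 and 65.3 CPM and VIM lies between 1180 and 1520 CPM.

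Summed levels of the luminal markers differed between groups and experiment pairs, and those of the other marker lists overlapped in part. The 7 listed luminal markers summed to 66.6 to 72.1 CPM in WT of experiments 10 and 11 and 55.7 to 57.2 CPM in WT of experiments 15 and 16. In clone A1 they summed to 50.2 to 59.2 and then 45.3 to 46.1 CPM, and in clone A2 to 46.3 to 49.3 CPM. KRT18 made up most of these sums and fell between the pairs, by 0.38 on the log2 scale in WT and by 0.39 in clone A1 (edgeR adjusted p = 0.00738 and 0.00226). The list as a whole did not follow it, with a median log2 fold change between the pairs of 0.45 in WT (EPCAM called higher) and 0.56 in clone A1 (CDH1 and CLDN3 called higher). Called markers were thus 1 higher and 1 lower in WT and 2 higher and 1 lower in clone A1, where 16.4% and 39.4% of all genes were called. KRT8 was lower than in WT in clone A1 of both pairs (log2 fold changes −0.94 and −0.70, edgeR adjusted p = 0.0282 and 0.0179). It was also lower in clone A2 (−0.97, edgeR adjusted p = 0.00104). KRT8 was the 1 luminal marker of 7 called in each of these comparisons, where 0.194%, 8.24% and 16.4% of all genes were called. The list medians there were −0.29, −0.28 and −0.01. The 6 listed basal markers summed to 1430 to 1660 CPM in early WT, 1310 to 1380 CPM in late WT, 1350 to 1450 and 1310 to 1350 CPM in clone A1, and 1250 to 1270 CPM in clone A2. VIM made up most of these sums. Between the pairs 0 basal markers were called higher and 2 lower in WT, and 1 higher and 2 lower in clone A1. There 16.4% and 39.4% of all genes were called. Of the 6 basal markers, SNAI2, a repressor of epithelial genes, was the 1 called against WT of experiments 15 and 16. It was lower by 2.16 on the log2 scale in clone A1 and by 1.28 in clone A2 (edgeR adjusted p = 3.64e-10 and 1.55e-07). There 8.24% and 16.4% of all genes were called, and the list medians were 0.05 and −0.04. In experiments 10 and 11 SNAI2 had means of 45.5 CPM in clone A1 and 43.5 CPM in WT. Between the pairs its values were −0.50 in WT and −2.73 in clone A1 (edgeR adjusted p = 0.000774 and 1.67e-11). The change of its clone A1 effect between the pairs was −2.23 (edgeR adjusted p = 3.66e-08). Immune markers summed to at most 3.71 CPM and stromal markers to at most 12.7 CPM, with PTPRC, CD3E, LYZ, COL1A2, PDGFRB, DCN and PECAM1 not listed. Sums of the 3 immune markers were 2.75 to 3.45 and 2.87 to 3.71 CPM in WT of the earlier and later pairs, 2.61 to 2.76 and 2.89 to 3.2 CPM in clone A1, and 2.6 to 3.18 CPM in clone A2. For the 2 stromal markers the same groups had 9.63 to 12.7, 11.2 to 11.9, 7.13 to 7.77, 10.3 to 12.2 and 10.9 to 12.6 CPM. The part of these markers in the changes of the members was not tested, and in bulk RNA fewer cells of a type and less RNA per cell cannot be told apart.

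Total counts were 40077369 to 51311482 per library. SAMHD1 ranged from 49.8 to 56.4 CPM across WT. In clone A1 it measured 22.5 and 23.0 CPM in the earlier and 6.44 and 6.15 CPM in the later pair, and in clone A2 23.6 and 20.2 CPM. All KO libraries were below all WT libraries, and clone A1 was lower in the later than in the earlier pair.

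To compare the members with each other, mean CPM over the 10 libraries was divided by the length in kb of the canonical transcript of each gene. XBP1 was the most abundant of the 7, with 28.2 CPM per kb, above 82.3% of genes. GATA3 (6.54), FOXA1 (5.76) and TFAP2C (4.98 CPM per kb) followed and stood above 44.6%, 41.1% and 37.8% of genes. Their ranges over the libraries overlapped, at 5.0 to 8.03, 4.02 to 7.62 and 3.04 to 6.32 CPM per kb, so these 3 are not ordered by more than their spread. TRPS1 had 2.81 CPM per kb and PGR 1.45. ESR1, at 0.108 CPM per kb, stood above 1.92% of genes, below every other member in all libraries. The transcript that each gene uses in these cells was not measured.

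**Figure D2:**
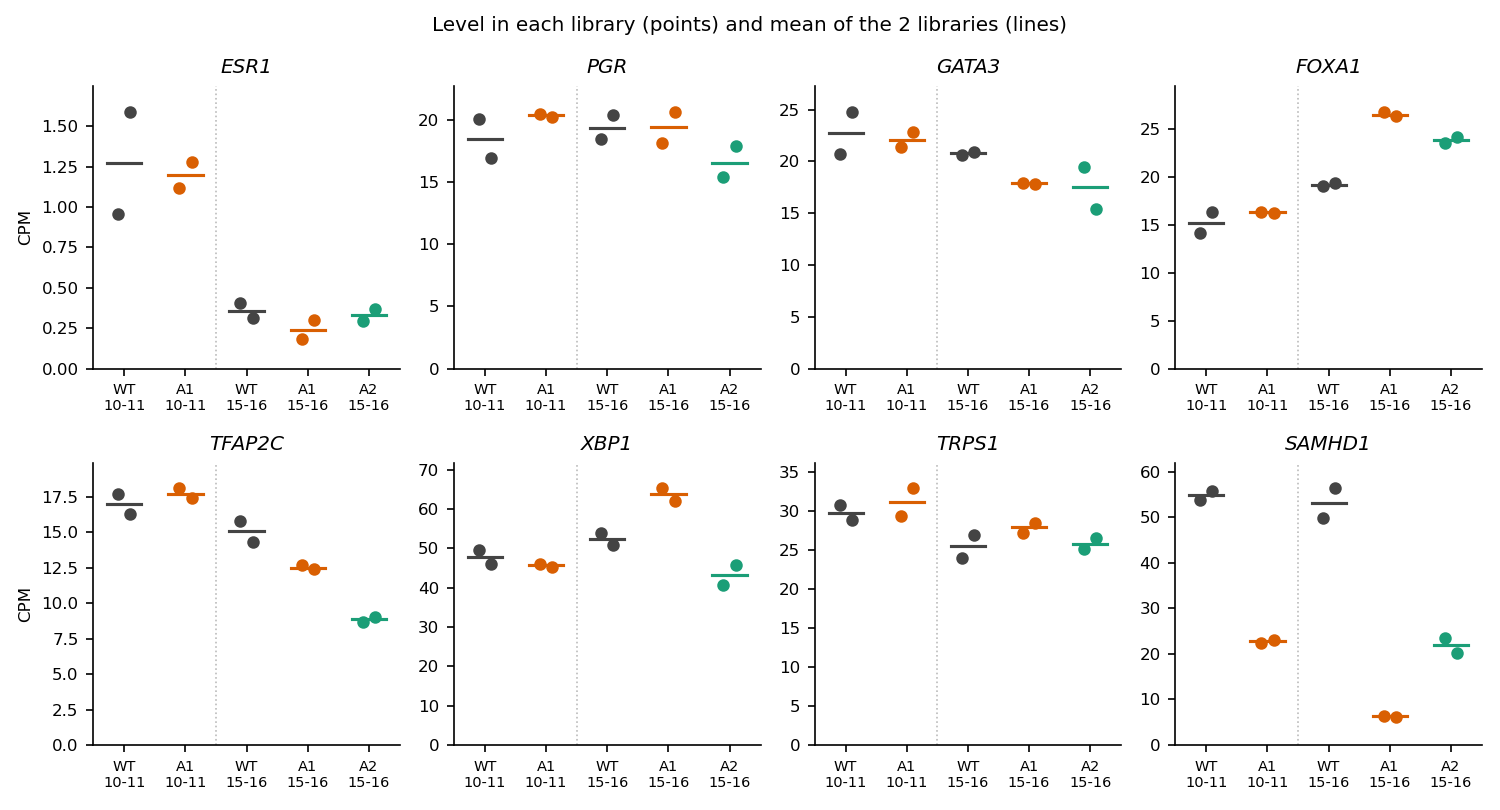
CPM of the 7 members and SAMHD1 in each library (points) with the mean of the 2 libraries of a group and experiment pair (lines), each axis starting at 0. FOXA1 rises from 14.1 to 16.3 CPM in the earlier pair to 26.3 and 26.8 CPM in late clone A1, and TFAP2C is lowest in clone A2, at 8.7 and 9.02 CPM.

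Groups were compared with edgeR's quasi-likelihood test over all genes, with Benjamini-Hochberg adjustment and a threshold of 0.05. Within experiments 15 and 16, 2 of 7 members were called in clone A1 against WT, FOXA1 and XBP1, both higher, where 8.24% of all genes were called. In clone A2 against WT 3 of 7 were called, FOXA1 higher and TFAP2C and XBP1 lower, where 16.4% of all genes were called. Between clones A2 and A1 the difference itself was called for TFAP2C and XBP1, both lower in A2, against 4.14% of all genes. Within experiments 10 and 11, 0 of 7 members were called in clone A1 against WT (edgeR), where 0.194% of all genes were called, and none reached an unadjusted p under 0.05 (0 of 7). DESeq2 and limma-trend also called 0 of 7 there.

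The later experiments were then compared with the earlier ones within WT and within clone A1. In WT, 2 of 7 members changed from experiments 10 and 11 to experiments 15 and 16, ESR1 lower and FOXA1 higher, with 16.4% of all genes called. In clone A1, 5 of 7 changed, ESR1, GATA3 and TFAP2C lower and FOXA1 and XBP1 higher, with 39.4% of all genes called. The change of the clone A1 effect between the pairs, tested as an interaction, was called for 0 of 7 members with edgeR, where 2.5% of all genes were called. FOXA1, TFAP2C and XBP1 had an unadjusted p under 0.05 there, and DESeq2 and limma-trend also called 0 of 7. With both clones joined into 1 group of 4 KO libraries against the 2 WT libraries of experiments 15 and 16, FOXA1 was called (1 of 7), where 9.99% of all genes were called. The study's methods describe the RNA samples as biological duplicates. In the fit of 5 groups, p-values measure the spread between the 2 libraries of a group. The joined test takes 4 KO libraries from 2 clones as replicates, so its spread also includes the difference between the clones.

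**Figure D3:**
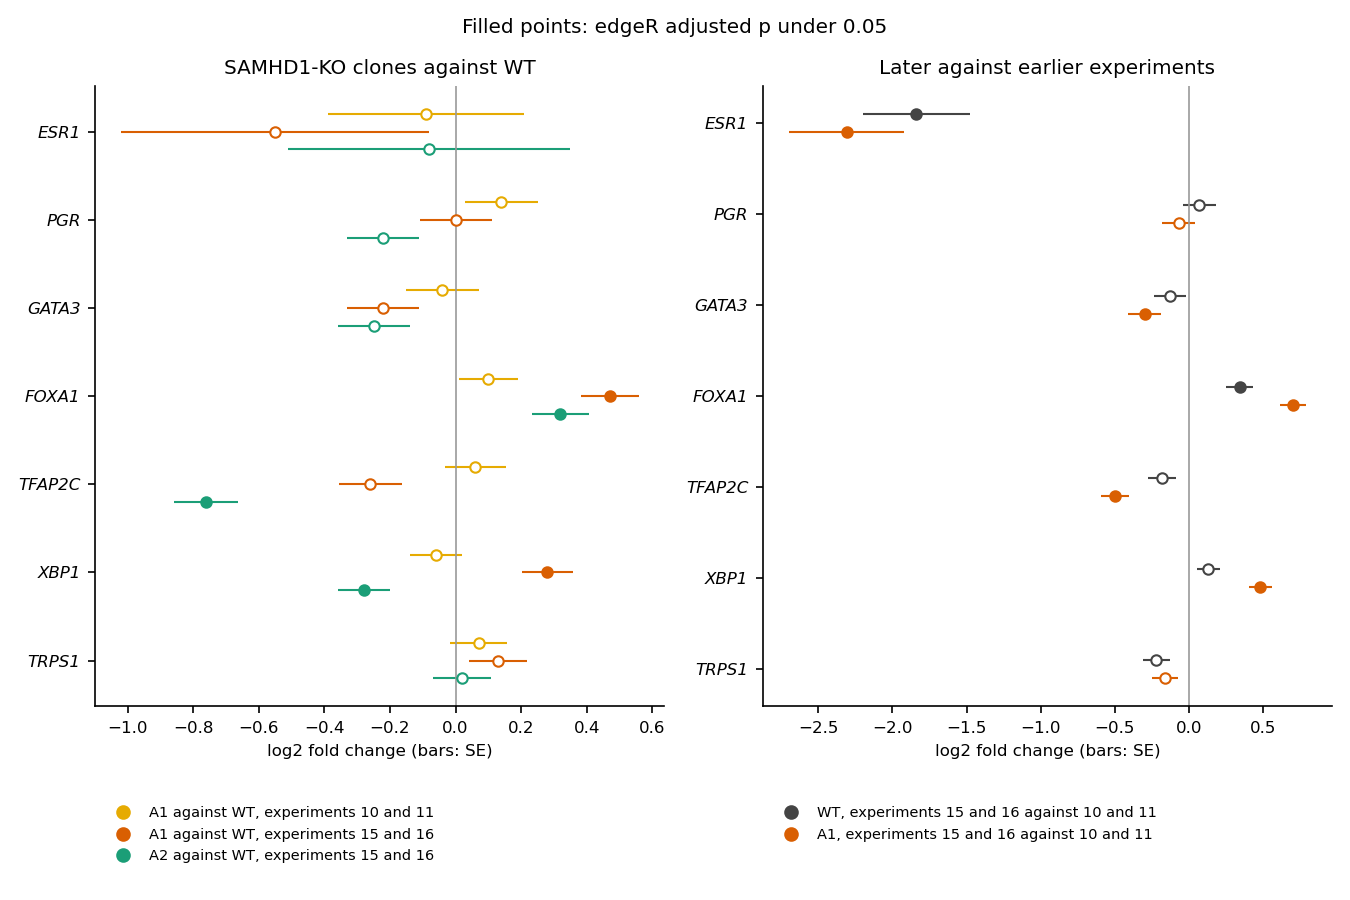
Log2 fold changes of the 7 members (horizontal axis, bars SE) for the clones against WT (left) and for the later against the earlier experiments (right), with filled points where the edgeR adjusted p was under 0.05. The 2 clones lie on the same side of 0 for FOXA1 and on opposite sides for XBP1, and ESR1 lies near −2 on the right in both WT and clone A1.

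ESR1 (NCBI gene 2099, chromosome 6 from 151656672 to 152129619, plus strand, GRCh38), the estrogen receptor alpha gene, was barely detected, and its level followed the experiment pair. The 4 WT libraries, ordered by experiment from 10 to 16, gave 0.954, 1.59, 0.403 and 0.312 CPM. Those of clone A1 gave 1.12, 1.28, 0.183 and 0.298 CPM, and the 2 of clone A2 gave 0.292 and 0.371 CPM. All 4 libraries of the earlier pair were above all 6 of the later pair. These levels rest on few reads, 44, 78, 54 and 59 in the earlier libraries and 8 to 19 in the later ones. The exact Poisson 95% interval of the lowest count, 8 reads in clone A1 of experiment 15, was 3.45 to 15.8 reads, which covers counting error only. From the earlier to the later pair ESR1 fell by 1.84 on the log2 scale in WT (SE 0.36, edgeR adjusted p = 0.00291) and by 2.31 in clone A1 (SE 0.39, edgeR adjusted p = 0.000206). Both calls held with each library left out, with an edgeR adjusted p of at most 0.0499 in WT and 0.00686 in clone A1. Between genotypes within a pair no ESR1 difference passed. Both clone A1 libraries of experiments 15 and 16 were below both WT libraries, at a log2 fold change of −0.55 (SE 0.47, edgeR adjusted p = 0.545), and the value for clone A2 was −0.08 (SE 0.43, edgeR adjusted p = 0.926). At these errors even a change of the size measured in clone A1 was not detectable at this depth.

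**Figure D4:**
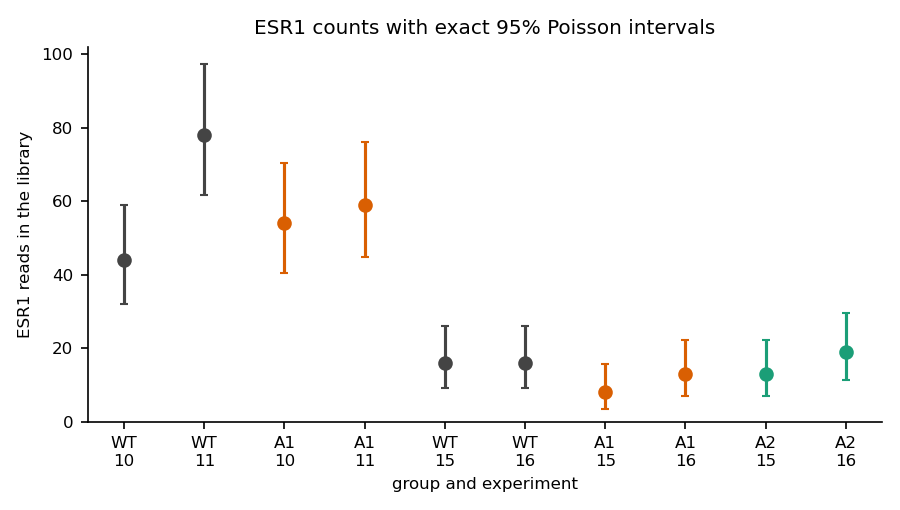
Reads counted on ESR1 in each library, by group and experiment, with exact 95% Poisson intervals as bars. The 4 libraries of experiments 10 and 11 hold 44 to 78 reads and the 6 libraries of experiments 15 and 16 hold 8 to 19 reads.

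PGR (NCBI gene 5241, chromosome 11 from 101029624 to 101129813, minus strand), the progesterone receptor gene, stood above ESR1 in every library and had similar levels in WT and clone A1. It measured 20.1, 17.0, 18.5 and 20.4 CPM in WT, ordered by experiment, and 20.5, 20.3, 18.2 and 20.7 CPM in clone A1. Clone A2 was lower, with 15.4 and 17.9 CPM, both below all 4 other libraries of experiments 15 and 16. This difference did not pass against WT (log2 fold change −0.22, SE 0.11, edgeR adjusted p = 0.179) or against clone A1 (−0.23, SE 0.11, edgeR adjusted p = 0.321). The highest library was 1.35 times the lowest, the smallest spread of the 7 members. PGR shares 737 exonic bases with PGR-AS1 on the opposite strand, and whether reads were counted by strand is not given in the sources used here.

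Of the other nuclear receptors 22 were listed. In experiments 15 and 16, 2 of the 22 were lower and 0 higher in clone A1, near the 8.24% of all genes called (median log2 fold change −0.16, against 0.003 over all genes). In clone A2, 3 were higher and 3 lower, against 16.4% of all genes called (median −0.07, against 0.007). NR2F2 (COUP-TFII), an orphan receptor that acts mostly as a repressor, fell in both clones, from a mean of 74.7 CPM in WT to 60.1 CPM in clone A1 (log2 fold change −0.31, edgeR adjusted p = 0.0118) and 51.3 CPM in clone A2 (−0.54, edgeR adjusted p = 8.52e-05). The vitamin D receptor gene VDR fell in clone A1, from 4.44 to 2.51 CPM (edgeR adjusted p = 0.0161). In clone A2 the mineralocorticoid receptor NR3C2, the heterodimer partner RXRA and the adipogenic receptor PPARG rose by 0.41, 0.33 and 0.32 on the log2 scale (edgeR adjusted p = 0.013, 0.01 and 0.0227). The second estrogen receptor gene, ESR2, had 0.933 to 1.95 CPM. Between the pairs 6 receptors were lower and 0 higher in WT (median −0.20, against 0.003 over all genes, of which 16.4% were called). In clone A1, 9 were lower and 3 higher (median −0.23, against 0.006 over all genes, of which 39.4% were called). The glucocorticoid receptor gene NR3C1 was among the 9 lower, with 72.4 CPM in the earlier and 50.5 CPM in the later clone A1 libraries (−0.52, edgeR adjusted p = 5.64e-05). For clone A2 against clone A1 the list gave 1 higher, the thyroid hormone receptor gene THRA, and 0 lower, and for the interaction 0 higher and 1 lower, NR2F2, near the 4.14% and 2.5% of all genes called there.

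All 17 receptor coregulators were listed, and most of their calls were falls between the experiment pairs. From the earlier to the later pair 7 fell and 0 rose in WT (median −0.20, against 0.003 over all genes), where 16.4% of all genes were called. In clone A1, 12 fell and 0 rose (median −0.27, against 0.006), where 39.4% of all genes were called. The acetyltransferase gene EP300 fell from 105 to 74.5 CPM in WT (log2 fold change −0.50, edgeR adjusted p = 0.00116). NRIP1, an estrogen-induced corepressor, fell in WT from 48.1 to 36.8 CPM and in clone A1 from 53.5 to 33.4 CPM (edgeR adjusted p = 0.0118 and 3.98e-05). LDB1, an adaptor that bridges enhancers and promoters, fell from 218 to 162 CPM in WT and from 213 to 140 CPM in clone A1, with edgeR adjusted p of 0.00149 and 1.08e-05. Against WT of experiments 15 and 16, edgeR called 0 of 17 in clone A1 (6 at an unadjusted p under 0.05), and in experiments 10 and 11 also 0 of 17 (0 unadjusted), where 8.24% and 0.194% of all genes were called. DESeq2 and limma-trend called 0 of 17 in both. In clone A2 the methyltransferase gene KMT2C and the acetyltransferase gene CREBBP were higher and EP300 was lower than in WT, 2 up and 1 down, where 16.4% of all genes were called.

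Of 18 estrogen receptor target genes 13 were listed, and TFF1, TFF3, AREG, KRT13 and SERPINA1 were not. In experiments 15 and 16, 1 was higher and 1 lower in each clone against WT, where 8.24% of all genes were called in clone A1 and 16.4% in clone A2. In clone A1 these were STC2, a secreted glycoprotein gene (from 92.6 to 137 CPM, edgeR adjusted p = 0.0419), and IGFBP4, an IGF-binding protein gene (from 7.33 to 4.0 CPM, edgeR adjusted p = 0.00201). In clone A2 these were GREB1, an ESR1 cofactor gene (from 6.2 to 8.42 CPM, edgeR adjusted p = 0.0359), and the cyclin gene CCND1 (from 106 to 88.3 CPM, edgeR adjusted p = 0.0266). Between the pairs 2 targets of 13 rose and 0 fell in WT, where 16.4% of all genes were called, and 4 rose and 1 fell in clone A1, where 39.4% were called, so the targets were called about as often as genes in general. The chemokine gene CXCL12 rose the most among them, from 3.52 to 7.14 CPM in WT and from 2.19 to 9.91 CPM in clone A1 (edgeR adjusted p = 0.00108 and 1.93e-07). It was the 1 target called in the interaction (1.16, SE 0.25, edgeR adjusted p = 0.0209), where 2.5% of all genes were called. Between clones A2 and A1, 2 of 13 were called, IGFBP4 higher in clone A2 (0.81, edgeR adjusted p = 0.00353) and CXCL12 lower (−0.71, edgeR adjusted p = 0.017), where 4.14% of all genes were called.

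FOXA1 (NCBI gene 3169, chromosome 14 from 37589552 to 37595249, minus strand), the pioneer factor gene, was the member that was higher in both clones. Ordered by experiment, the WT libraries held 14.1, 16.3, 19.0 and 19.4 CPM. The clone A1 libraries held 16.3, 16.2, 26.8 and 26.3 CPM, and those of clone A2 23.5 and 24.2 CPM. In experiments 15 and 16 all 4 KO libraries were above both WT libraries, and in experiments 10 and 11 the groups overlapped. Against WT of experiments 15 and 16 FOXA1 was 1.38-fold higher in clone A1 (log2 fold change 0.47, SE 0.088, edgeR adjusted p = 0.00363) and 1.24-fold higher in clone A2 (0.32, SE 0.088, edgeR adjusted p = 0.0217). The clones did not differ past the threshold (−0.15, SE 0.087, edgeR adjusted p = 0.414). The call in clone A1 held with each library left out, but that in clone A2 was lost without WT of experiment 15 or 16 or without either clone A2 library (edgeR adjusted p = 0.141, 0.0979, 0.0765 and 0.131).

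FOXA1 was also higher in the later pair in both genotypes. It rose by 0.34 on the log2 scale in WT (SE 0.09, edgeR adjusted p = 0.0183) and by 0.70 in clone A1 (SE 0.089, edgeR adjusted p = 1.23e-05). The call in WT was lost without WT of experiment 10, 15 or 16 (edgeR adjusted p = 0.0861, 0.0793 and 0.121). The difference between these rises, 0.37 (SE 0.13), did not pass (edgeR adjusted p = 0.146), and passed without WT of experiment 10 (0.472, edgeR adjusted p = 0.0254). With the clones joined, the value was 0.39 (SE 0.081, edgeR adjusted p = 0.0112), lost without WT of experiment 15 or 16 (edgeR adjusted p = 0.13 and 0.103), and 0.371 with adjusted p = 0.576 over all 10 libraries. The median log2 fold change over the 49 genes within 10 Mb of FOXA1 was 0.02 in clone A1 and 0.01 in clone A2 against WT of experiments 15 and 16. Between the pairs it was 0.10 in WT, where FOXA1 was 0.24 above it, and 0.02 in clone A1, where FOXA1 was 0.69 above it.

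The sequences upstream of FOXA1 and XBP1 are shown because these were the 2 members that rose together in clone A1. They are the 250 bases before the transcription start on the minus strand, from RefSeq promoter windows of GRCh38.p14, at chr14:37595250-37595499 and chr22:28800570-28800819. Capitals mark the single match to GGTCA, one arm of the palindromic estrogen response element, here on the other strand.
FOXA1: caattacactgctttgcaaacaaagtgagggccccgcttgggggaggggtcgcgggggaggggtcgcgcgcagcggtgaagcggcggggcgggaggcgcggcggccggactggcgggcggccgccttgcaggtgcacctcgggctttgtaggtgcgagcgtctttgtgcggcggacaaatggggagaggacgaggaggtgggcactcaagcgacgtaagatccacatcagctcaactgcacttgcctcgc
XBP1: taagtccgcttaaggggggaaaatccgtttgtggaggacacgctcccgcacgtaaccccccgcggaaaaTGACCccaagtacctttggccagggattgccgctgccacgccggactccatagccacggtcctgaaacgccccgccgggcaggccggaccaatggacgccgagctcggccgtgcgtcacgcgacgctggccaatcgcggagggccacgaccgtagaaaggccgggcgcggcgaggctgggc

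Promoter windows of 300 bases (250 before and 50 after a start) were given for 5 of the 7 members, ESR1, PGR, GATA3, FOXA1 and XBP1, in 18 windows, and not for TFAP2C and TRPS1. Both strands were searched for GGTCA, for the full estrogen response element (GGTCA, any 3 bases and its reverse complement), AGATAA (a motif of the GATA family), TGTTTAC (forkhead factors), GCCNNNGGC (AP-2 factors) and TGACGTG (XBP1). The full element and the GATA, forkhead and XBP1 motifs were in none of the 18 windows, and they were in 0.057%, 10.3%, 3.42% and 1.97% of all 35116 windows. GGTCA, which is part of the full element, was found in windows of ESR1, PGR, GATA3 and XBP1 and in 37.4% of all windows. GCCNNNGGC was found in windows of PGR, GATA3 and XBP1 and in 23.2% of all windows. These genes had 2 to 6 windows each, so a gene with a match cannot be set against a share of windows. The FOXA1 window held none of these motifs. A match is a string of letters and was not tested as a binding site.

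GATA3 (NCBI gene 2625, chromosome 10 from 8045333 to 8075198, plus strand), the luminal GATA factor gene, was somewhat lower in the later KO libraries. It was not called against WT in the fit of 5 groups with all libraries. Ordered by experiment, its values were 20.7, 24.8, 20.6 and 20.9 CPM in WT and 21.4, 22.8, 17.9 and 17.8 CPM in clone A1. In clone A2 they were 19.5 and 15.4 CPM. In experiments 15 and 16 all 4 KO libraries were below both WT libraries. The log2 fold changes were −0.22 in clone A1 (SE 0.11, edgeR adjusted p = 0.27) and −0.25 in clone A2 (SE 0.11, edgeR adjusted p = 0.139). Without clone A2 of experiment 15 the value for A2 was −0.432 and passed (edgeR adjusted p = 0.0383). Within clone A1 GATA3 was lower in the later pair (−0.30, SE 0.11, edgeR adjusted p = 0.0412). That call was lost when any of the 4 clone A1 libraries or WT of experiment 15 or 16 was left out, with edgeR adjusted p of 0.0812, 0.199, 0.137 and 0.132 for clone A1 of experiments 10, 11, 15 and 16 and 0.0514 and 0.0503 for WT of experiments 15 and 16.

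TFAP2C (NCBI gene 7022, chromosome 20 from 56629306 to 56639283, plus strand), the AP-2 gamma gene, was lowest in clone A2. In the order of the experiments WT gave 17.7, 16.3, 15.8 and 14.3 CPM, and clone A1 gave 18.1, 17.4, 12.7 and 12.4 CPM. Both libraries of clone A2 were lower, at 8.7 and 9.02 CPM. In experiments 15 and 16 the 3 groups did not overlap, with WT highest and clone A2 lowest. Against WT TFAP2C fell by 0.76 on the log2 scale in clone A2 (SE 0.098, edgeR adjusted p = 7.77e-05), to 0.59 of the WT level, and this call held with each library left out. In clone A1 the value was −0.26 (SE 0.096, edgeR adjusted p = 0.111). The clones differed by −0.50 (SE 0.099, edgeR adjusted p = 0.00553), with adjusted p of 0.0586 without clone A1 of experiment 15 and 0.0717 without clone A2 of experiment 15. Within clone A1 TFAP2C fell by 0.50 between the pairs (SE 0.096, edgeR adjusted p = 0.000584), and in WT the value was −0.18 (SE 0.094, edgeR adjusted p = 0.21). The interaction was −0.32 (SE 0.13, edgeR adjusted p = 0.251). With both clones in 1 group the value was −0.49 (SE 0.16, edgeR adjusted p = 0.0777), and it passed without clone A1 of experiment 15 or 16 (edgeR adjusted p = 0.0335 and 0.0463). TFAP2C lies on the same chromosome as SAMHD1, 19.7 Mb away, and the median over the 110 genes within 10 Mb of TFAP2C was 0.04 in clone A2.

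TRPS1 (NCBI gene 7227, chromosome 8 from 115408496 to 115668975, minus strand), the GATA-type repressor gene, was not called in any comparison. The WT values, ordered by experiment, were 30.7, 28.8, 24.0 and 26.9 CPM. Those of clone A1 were 29.4, 32.9, 27.2 and 28.5 CPM, and those of clone A2 25.1 and 26.5 CPM. Against WT of experiments 15 and 16 the log2 fold changes were 0.13 in clone A1 (SE 0.089, edgeR adjusted p = 0.434) and 0.02 in clone A2 (SE 0.089, edgeR adjusted p = 0.933). Between the pairs the values were −0.22 in WT (SE 0.088, edgeR adjusted p = 0.0961) and −0.16 in clone A1 (SE 0.088, edgeR adjusted p = 0.162).

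Of 21 other epithelial transcription factors 16 were listed, and ELF3, EHF, ELF5, TFAP2B and OVOL1 were not. KLF5, a zinc finger activator of epithelial genes, and RUNX1, a factor of luminal progenitors, rose in both clones of experiments 15 and 16. KLF5 rose from 17.1 CPM in WT to 24.7 CPM in clone A1 and 27.7 CPM in clone A2 (edgeR adjusted p = 0.00187 and 8.28e-05), and RUNX1 from 38.7 CPM to 53.7 and 51.1 CPM (edgeR adjusted p = 0.00302 and 0.00445). In clone A1 these 2 of 16 were the ones called, with 0 lower, where 8.24% of all genes were called (median 0.16, against 0.003). In clone A2, 3 were higher and 1 lower, where 16.4% of all genes were called (median 0.06, against 0.007), the others being TBX2 (log2 fold change 0.34, edgeR adjusted p = 0.0255) and the homeobox gene MSX2 (−0.56, edgeR adjusted p = 0.00238). Within experiments 10 and 11 edgeR called 0 of 16 in clone A1 against WT, where 0.194% of all genes were called. There KLF5 had 8.38 CPM in clone A1 and 8.13 CPM in WT, and RUNX1 27.7 and 32.6 CPM. Between the pairs KLF5 rose by 1.07 in WT and 1.56 in clone A1 on the log2 scale (edgeR adjusted p = 4.22e-06 and 5.96e-09). In all, 2 of the 16 rose and 2 fell between the pairs in WT, where 16.4% of all genes were called, and 6 rose and 2 fell in clone A1, where 39.4% were called. RUNX1 was the 1 factor of the 16 called in the interaction (0.71, SE 0.12, edgeR adjusted p = 0.00626), where 2.5% of all genes were called. The GRHL2 relatives GRHL1 and GRHL3 had 5.16 to 7.79 and 0.555 to 1.39 CPM, and the TFAP2C relative TFAP2A had 42.2 to 59.8 CPM.

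Of 6 genes known as GRHL2 targets, 5 were listed. Of these ESRP1, an epithelial splicing regulator gene, was the highest, at 6.65 to 10.1 CPM. CDH1, EPCAM, CLDN4 and ERBB3 had at most 2.25 CPM. Against WT, edgeR called 0 of 5 in clone A1 of each pair and in clone A2, with 1, 1 and 0 at an unadjusted p under 0.05 in late clone A1, early clone A1 and clone A2, and DESeq2 and limma-trend called 0 of 5. Over all genes edgeR called 8.24%, 0.194% and 16.4% in these comparisons, so 0 of 5 does not set the list apart. Between the pairs EPCAM rose in WT (from 0.737 to 1.43 CPM, edgeR adjusted p = 0.048, not called by DESeq2 or limma-trend) and CDH1 and ERBB3 rose in clone A1 (from 0.69 to 1.74 and from 1.24 to 1.98 CPM, edgeR adjusted p = 0.00614 and 0.0428), where DESeq2 called 1 of the 5 genes and limma-trend called 3. These counts, 1 and 2 of 5, stood against 16.4% and 39.4% of all genes called between the pairs in WT and clone A1.

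XBP1 (NCBI gene 7494, chromosome 22 from 28794560 to 28800569, minus strand), the unfolded protein response gene, moved in opposite directions in the clones. WT gave 49.5, 45.9, 54.0 and 50.8 CPM in the order of the experiments. Clone A1 gave 46.1, 45.3, 65.3 and 62.1 CPM, and clone A2 gave 40.7 and 45.8 CPM. In experiments 15 and 16 clone A1 was above and clone A2 below both WT libraries. Against WT XBP1 was 1.22-fold higher in clone A1 (log2 fold change 0.28, SE 0.078, edgeR adjusted p = 0.034) and 0.826 of the WT level in clone A2 (−0.28, SE 0.079, edgeR adjusted p = 0.0245). Directly between the clones the difference was −0.56 (SE 0.079, edgeR adjusted p = 0.000316) and held with each library left out. The call in clone A1 was lost without WT of experiment 15 or 16 (edgeR adjusted p = 0.104 and 0.241) and without clone A1 of experiment 10, 11, 15 or 16 (0.0569, 0.0566, 0.208 and 0.0873). The call in clone A2 was lost without WT of experiment 15 or 16 or clone A2 of experiment 15 (0.194, 0.0602 and 0.233). With the clones joined the value was 0.03 (SE 0.22, edgeR adjusted p = 0.961).

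Within clone A1 XBP1 rose by 0.48 between the pairs (SE 0.078, edgeR adjusted p = 0.000151), and in WT the value was 0.13 (SE 0.078, edgeR adjusted p = 0.259). The interaction was 0.35 (SE 0.11, edgeR adjusted p = 0.121), and it passed without WT of experiment 11 (0.399, edgeR adjusted p = 0.048).

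In clone A2 the genes around XBP1 on chromosome 22 were lower as well. The median log2 fold change over the 189 genes within 10 Mb was −0.45 against WT and −0.50 against clone A1, so XBP1, at −0.28 and −0.56, was 0.18 above and 0.06 below these medians. Over all 318 genes of chromosome 22 the medians were −0.49 and −0.51, whereas those of the other 21 autosomes lay between −0.15 and 0.16 against WT and between −0.03 and 0.06 against clone A1. In clone A1 against WT the 189 neighbours had a median of 0.04, and XBP1 was above 89.4% of them. EP300, the coregulator gene that was lower in clone A2 (−0.44 against WT and against clone A1, edgeR adjusted p = 0.00248 and 0.00583), lies on chromosome 22 as well. For the other 6 members the medians of the neighbours lay between −0.04 and 0.08 in the same 3 comparisons. The copy number of chromosome 22 was not measured, and its part in the XBP1 level was not tested.

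**Figure D5:**
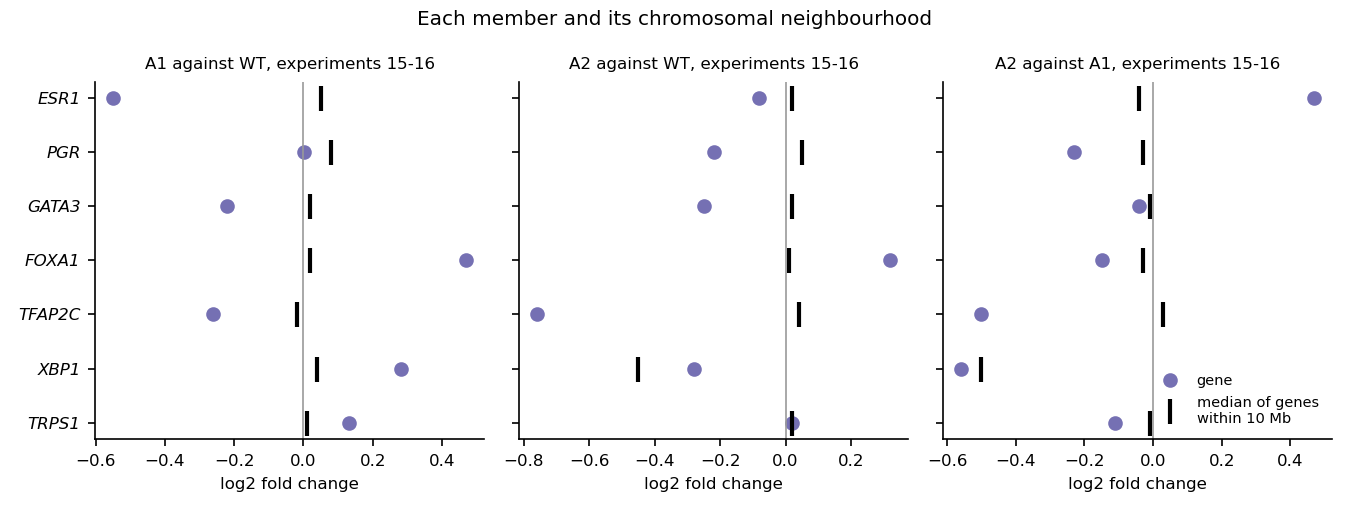
Log2 fold change of each member (points) and the median over the other genes within 10 Mb (vertical marks) in experiments 15 and 16, for clone A1 against WT, clone A2 against WT and clone A2 against clone A1. In both panels with clone A2 the marks of XBP1 lie at −0.45 and −0.50, with its points at −0.28 against WT and −0.56 against clone A1. The marks of the other members lie between −0.04 and 0.08 across all panels.

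The 11 genes known as XBP1 targets, which serve protein folding, export and degradation in the endoplasmic reticulum, were all listed, and none was called lower in any comparison. In clone A1 against WT of experiments 15 and 16, 2 were higher (median 0.10, against 0.003 over all genes, of which 8.24% were called), the disulfide isomerase gene PDIA4 (from 208 to 255 CPM, edgeR adjusted p = 0.00925) and the co-chaperone gene DNAJB9 (from 19.4 to 25.1 CPM, edgeR adjusted p = 0.0399). In clone A2, where XBP1 was lower, 4 were higher (median 0.20, against 0.007 over all genes, of which 16.4% were called). These were PDIA4 (285 CPM, edgeR adjusted p = 0.000165), HERPUD1, a degradation factor gene (from 19.1 to 26.3 CPM, edgeR adjusted p = 0.00182), SEC24D and HYOU1 (log2 fold changes 0.27 and 0.22, edgeR adjusted p = 0.0396 and 0.0267). Between clones A2 and A1 edgeR called 0 of 11 (2 at an unadjusted p under 0.05), and within experiments 10 and 11 also 0 of 11 (0 unadjusted), as did DESeq2 and limma-trend, where 4.14% and 0.194% of all genes were called by edgeR. Between the pairs 2 of 11 rose in WT and 6 in clone A1, where 16.4% and 39.4% of all genes were called, DNAJB9 from 12.5 to 19.4 and from 13.0 to 25.1 CPM (edgeR adjusted p = 0.00136 and 5.1e-06). Counts per gene do not show the spliced form of XBP1 mRNA that encodes the active factor.

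Across the 10 libraries some members moved together, given here as a description over libraries that share experiments and groups. Pearson's r of log2 CPM was −0.87 between ESR1 and FOXA1, −0.80 between FOXA1 and TFAP2C, −0.77 between GATA3 and FOXA1, and 0.74 between GATA3 and TFAP2C. XBP1 had its highest r with FOXA1, 0.46. Among all non-member genes, those most alike in pattern to FOXA1 were NSG1 and ERP44 (r = 0.989 and 0.988), NSG1 with means of 11.5, 17.4, 13.4, 25.1 and 21.9 CPM in early WT, late WT, early A1, late A1 and A2. Those most like ESR1 were TTLL4 and PI4K2A (0.992 and 0.99), and those most like TFAP2C were CA2 and ADSL (0.986 and 0.985), of which CA2 had 184, 158, 183, 134 and 84.7 CPM in the same order. GATA3 was most like SSBP3 and TP53INP2 (0.976 and 0.968), XBP1 most like RSPO4 and ACAD11 (0.967 and 0.965), PGR most like NEDD1 and PCNX4 (0.965 and 0.964), and TRPS1 most like SNX18 and TRAK1 (0.959 and 0.958). RSPO4 had a mean of 0.62 CPM, so its pattern rests on few reads.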

How the data were processed

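RNA of 10 spheroid libraries had been prepared with a stranded mRNA kit. Per the study's methods and the submitters' processing notes, the authors aligned reads to GRCh38 (NCBI annotation) with HISAT2 and removed genes with a count of 0 in any library; StringTie is also listed in the notes, and the counting program and strand setting are not given in the sources used here. The deposited table holds unnormalized counts, whole numbers per NCBI gene identifier, of at least 1. Labels and methods name different RNA extraction kits. Of 13920 genes, 13885 were matched to the RefSeq gene table (GRCh38.p14); transcript lengths came from GENCODE canonical transcripts (13699 genes).

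The main model was fitted with edgeR 4.0.16 in R 4.3.3 (TMM, robust quasi-likelihood), as 1 fit of 5 groups of 2 libraries, with 5 residual degrees of freedom. The joined KO comparison used 2 groups, as in the study's methods. P-values were adjusted over all genes. Log2 CPM used a prior count of 2. DESeq2 1.42.0, limma-trend (limma 3.58.1), RLE factors, a mean count of at least 10, a replicate block, subsets of experiments and each library left out were alternatives. For the joined KO group, all 10 libraries were a further alternative. The methods were tested on simulated data. The members and lists were chosen with earlier results of these data known. All members were named. From each list, called genes were named, at most 4 per comparison by absolute log2 fold change, and for each member the 2 genes with the highest Pearson's r. Some items that the lists name are not reported here.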

Additional observations from a re-analysis of the deposited data

Results flagged for a closer look

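Among 14 sets of 4 libraries (7 members in WT and in clone A1), 1 held a library far from the others by Dixon's test, and chance gives about 1 in 20. GATA3 in WT had 24.8 CPM in experiment 11, against 20.6 to 20.9 CPM in the other WT libraries, so that the gap was 0.924 of the whole range, above the critical value at 95%.

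TFAP2C and XBP1 differed between the clones A2 and A1 by a test of the difference itself, in which the knock-out and other differences between these lines cannot be told apart. TFAP2C was lower in clone A2 than in clone A1 of experiments 15 and 16 by −0.50 on the log2 scale (edgeR adjusted p = 0.00553). XBP1 was lower in clone A2 by −0.56 (edgeR adjusted p = 0.000316), where the 189 genes within 10 Mb had a median of −0.50.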

How the results depend on the processing

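The alternatives were DESeq2, limma-trend, RLE factors, the count filter, the replicate block, subsets of experiments and, for the joined KO group, all 10 libraries. Across these, 295 member differences kept their direction and side of the threshold, 1 lost and 3 gained a call and 2 changed sign. With each library left out, 477 were kept, 26 lost and 5 gained a call and 24 changed sign, none of them past the threshold. Leaving out a library can leave a group with 1 library, which is then assumed to vary like the others. Then the number of members called lay between 1 and 2 for clone A1 against WT, between 1 and 3 for clone A2 against WT, between 1 and 2 for clone A2 against clone A1, between 1 and 2 for WT between the pairs, between 4 and 5 for clone A1 between the pairs, between 0 and 1 for the interaction and between 0 and 2 for the joined KO group.

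The joined KO group gave 2 called members with DESeq2, TFAP2C having been added (−0.496, adjusted p = 0.0178), and 0 over all 10 libraries. For near-zero values the sign changed. PGR in clone A1 of experiments 15 and 16 was −0.00042 with those experiments alone and −0.095 to 0.088 with libraries left out. XBP1 in the joined KO group was −8.9e-05 with limma-trend and −0.085 to 0.138 with libraries left out. The other ranges with libraries left out were, for ESR1, −0.274 to 0.094 in clone A2 and −0.412 to 0.33 in early clone A1. For GATA3 they were −0.174 to 0.093 in early clone A1, −0.215 to 0.124 between the clones and −0.259 to 0.008 in WT between the pairs. For FOXA1 in early clone A1 the range was −0.005 to 0.207. For PGR it was −0.046 to 0.192 in WT and −0.162 to 0.021 in clone A1 between the pairs. For TRPS1 it was −0.064 to 0.103 in clone A2, −0.017 to 0.146 in early clone A1, −0.018 to 0.149 for the interaction and −0.005 to 0.154 in the joined KO group. The cause was not tested.

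With experiment numbers entered as a replicate block, GATA3 passed in clone A2 against WT (−0.261, edgeR adjusted p = 0.0359) and XBP1 in the interaction (0.345, edgeR adjusted p = 0.0244), so that 1 member was called there, and no other call of a member changed. Within the pairs, deviations of libraries with the same number correlated at 0.0844 (WT and clone A1, experiments 10 and 11), 0.134, 0.151 and 0.103, so the numbers were not taken as pairing. No paired analysis was possible for the comparisons between the pairs because they share no experiment number.

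The number of all genes called was 1147 for clone A1 against WT, 2411 with the block and 1834 with experiments 15 and 16 alone. For clone A2 against WT it was 2283, and 3673 with the block. For early clone A1 it was 27, against 63 with DESeq2, 382 with the block and 12 with experiments 10 and 11 alone. For clone A2 against A1 it was 576 and 1213 with the block, and for the interaction 348, 533 with DESeq2 and 1247 with the block. For the joined KO group it was 1390 and 0 over all 10 libraries (edgeR). With libraries left out, the ranges were 343 to 2000, 1020 to 3199, 7 to 1361, 268 to 959, 88 to 1123 and 190 to 1531 in the same order, 820 to 3658 for WT between the pairs and 3751 to 6360 for clone A1 between the pairs.

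With 2 libraries per group, SE values of the members other than ESR1 lay between 0.078 and 0.11 on the log2 scale for each comparison of 2 groups in the fit of 5 groups, which limits what can be called. ESR1 rested on 8 to 78 reads.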
